A study of Mus musculus with 18 samples.

Results

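Hmgcs1, Idi1, Fdps, Fdft1, Sqle, Lss, Cyp51 and Insig1 make up a set of cholesterol synthesis genes that share control by the transcription factor SREBP2. They were chosen by name, as the rows of the expression table that carry 1 of these 8 symbols, and they are 8 of the 54838 genes in that table. The set was labelled as synthesis and uptake genes, but 7 of its members are enzymes of the synthesis pathway and the remaining member, Insig1, regulates the pathway. None of them takes up cholesterol, so they are described here as cholesterol synthesis genes. Their RNA was measured in 18 samples of mouse liver and liver tumour, in 6 groups of 3. All mice were C57BL/6 and 36 weeks old at sampling. Wild type (WT) mice and miR-181ab1 knockout (GKO) mice, which lack the microRNA genes Mir181a-1 and Mir181b-1 in every tissue, each gave a tumour group, a non-tumour group and a normal liver group. Tumours and the surrounding non-tumour livers came from animals given diethylnitrosamine (DEN, a carcinogen that liver cells activate) as a single intraperitoneal dose of 25 mg/kg on postnatal day 12. Normal livers came from untreated animals. The GKO line carries a germline deletion, whereas the study's WT controls were littermates with floxed alleles and no Cre, or with Cre alone. Neither the sharing of a mouse by a tumour and a non-tumour sample nor the number of animals behind the replicates is in the labels, so p-values measure the spread between these samples.

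Cells make cholesterol from acetyl-CoA in a long chain of steps. The mevalonate arm builds isoprenoid units and joins them into farnesyl diphosphate, and the sterol arm turns this into squalene, closes squalene into lanosterol and trims lanosterol to cholesterol. The genes of the chain are switched together: when sterols in the endoplasmic reticulum run low, the carrier SCAP brings SREBP2 to the Golgi, where it is cut, and its released part enters the nucleus and binds sterol regulatory elements beside NF-Y sites. When sterols are plentiful, INSIG proteins hold SCAP back, and Insig1 is itself an SREBP target, which closes a feedback loop. Liver is the main organ of this pathway.

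The 8 genes are spread over 6 chromosomes. In mm10 coordinates, Hmgcs1 (ENSMUSG00000093930) is at chr13:119690379-119708260 and Idi1 (ENSMUSG00000058258) at chr13:8885501-8892451, both on the plus strand. Fdps (ENSMUSG00000059743) is at chr3:89093588-89101959, Fdft1 (ENSMUSG00000021273) at chr14:63145150-63179578 and Cyp51 (ENSMUSG00000001467) at chr5:4081145-4104746, all on the minus strand. Sqle (ENSMUSG00000022351) is at chr15:59315077-59331192, Lss (ENSMUSG00000033105) at chr10:76531588-76557138 and Insig1 (ENSMUSG00000045294) at chr5:28071363-28078662, all on the plus strand. All 8 are protein-coding.

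Promoter sequences from RefSeq (GRCm38.p6) were found for 5 members, namely Hmgcs1, Idi1, Lss, Cyp51 and Insig1. They are shown because the members moved together across samples, as described below. The first pair of sequences gives the 250 bases before the annotated start, 5′ to 3′ on the strand of the gene. Capitals mark the letters CCAAT or their reverse complement ATTGG (an NF-Y box), a match to TCACNCCAC (a sterol regulatory element) in Hmgcs1 and CACGTG (an E-box) in Insig1.
Hmgcs1, chr13:119690101-119690350, plus strand: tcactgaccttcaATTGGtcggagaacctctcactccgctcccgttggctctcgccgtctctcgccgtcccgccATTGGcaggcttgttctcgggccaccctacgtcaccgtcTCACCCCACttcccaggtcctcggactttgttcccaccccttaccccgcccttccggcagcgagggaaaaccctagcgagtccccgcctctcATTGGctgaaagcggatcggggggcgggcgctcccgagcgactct
Insig1, chr5:28071162-28071411, plus strand: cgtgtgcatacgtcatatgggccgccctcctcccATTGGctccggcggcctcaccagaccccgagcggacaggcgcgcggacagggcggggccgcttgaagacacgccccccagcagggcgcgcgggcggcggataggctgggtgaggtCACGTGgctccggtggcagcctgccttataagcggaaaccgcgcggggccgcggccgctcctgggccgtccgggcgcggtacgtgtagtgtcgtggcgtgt

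The other 3 promoters are shown as 60 bases around an NF-Y box, which is again in capitals. Idi1 has 2 such boxes, at -45 and -14 from the start, and the first is shown.
Idi1, chr13:8885533-8885592, plus strand: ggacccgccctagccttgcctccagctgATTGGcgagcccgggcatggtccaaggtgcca
Lss, chr10:76531515-76531574, plus strand: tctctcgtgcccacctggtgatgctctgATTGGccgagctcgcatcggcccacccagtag
Cyp51, chr5:4104695-4104754, minus strand: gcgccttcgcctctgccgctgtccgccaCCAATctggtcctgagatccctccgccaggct

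On either strand, CCAAT was present in 5 of the 5 promoters, against 37.4% of all 32851 mouse promoters of the same 300 bases. It was also in 11 of 12 promoters of the other synthesis genes. The sterol regulatory element TCACNCCAC was in 1 of 5, the Hmgcs1 promoter at -137 from the start, against 1.24% of all promoters. It was in 0 of the 12 promoters of the other synthesis genes. The looser form TCACNCNAC, which includes the first, matched at the same place only among the 5. It was in 1 of the 12 others and in 888 of all 32851. CACGTG was in Insig1 alone of the 5, at -101, against 7.15% of all promoters. These are matches of letters in a fixed window, and no binding was measured.

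MicroRNAs pair with target RNAs mainly through the seed, bases 2 to 8, and often in the 3′ UTR, so the 3′ UTRs of the members were searched for it. The mature sequences from RefSeq are given with the seed in capitals.
miR-181a-5p (Mir181a-1, chr1:137966468-137966490, plus strand): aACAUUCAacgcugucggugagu
miR-181b-5p (Mir181b-1, chr1:137966650-137966673, plus strand): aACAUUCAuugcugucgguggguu

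Both have the seed ACAUUCA, which pairs with TGAATGT. Among the 8 members only Fdft1 held this word in its 3′ UTR, at position 1245 of 1600 bases and in 2 of 2 annotated transcripts, followed by A. Across 21020 genes with a 3′ UTR, 16.4% held it. The Fdft1 match, at chr14:63145499-63145505 on the minus strand, is shown with its neighbouring bases.
Fdft1: cctcagccttcTGAATGTacgagttatagg

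Some limits hold for all values that follow. Between 11925055 and 20751348 reads per sample fell on genes, as recovered from TPM (reads divided by gene length and scaled to the same total in every sample). Mir181a-1 and Mir181b-1 were listed at 0 TPM in all WT samples and all GKO samples but GKO tumour 3, which held 1 read of Mir181a-1, so these libraries of long RNA do not check the genotype. WT non-tumour 2 stood apart from the other non-tumours in the members, and values that rest on it are given with and without it. WT tumours 1 and 2 were more alike than most replicates, with a mean chi-square per gene of 24.4, against 277 and 247 for their pairs with WT tumour 3. That value is above sampling noise, but it cannot show whether they came from separate tumours or mice. Both were kept as samples. WT normal livers 1 and 2 were nearly as alike, at 25.1, against 66.8 and 103 for their pairs with WT normal 3. The defining markers of hepatocytes were present in every sample. Their summed level, over 9 genes, was 173283 to 208044 TPM in the 6 tumours and 71646 to 101287 in the 12 other livers, and the part of this difference in the results was not tested. In bulk RNA, fewer cells of a type and less RNA per cell cannot be told apart.

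The level of each member is given first, in the order of the pathway. Hmgcs1 encodes the cytosolic HMG-CoA synthase, an early step of the mevalonate arm, and was among the most abundant members. Its level was 167, 176 and 122 TPM in WT tumours and 341, 86.7 and 78.3 in GKO tumours. In non-tumours it was 73.2, 559 and 46.9 TPM in WT and 27.8, 98.4 and 37.8 in GKO. Normal livers had 69.8, 76.4 and 25.5 TPM in WT and 103, 71.3 and 45.2 in GKO. The highest of all 18 samples was WT non-tumour 2, not a tumour, and the 2 lower GKO tumours lay within the range of GKO normal livers. A 12.6% share of the 50-base stretches of Hmgcs1 is also in the overlapping gene Gm48342, and whether reads were counted by strand is not given in the sources used here.

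Idi1, the isopentenyl diphosphate isomerase of the mevalonate arm, was low in livers without tumour. Tumours had 3.21, 3.54 and 10.7 TPM of Idi1 in WT and 22.1, 2.76 and 9.18 in GKO. WT non-tumours had 1.11, 28.4 and 1.91 TPM, and GKO non-tumours 0.364, 0.765 and 0.354. The normal livers were at 0.462, 0.385 and 0.191 TPM in WT and at 0.873, 1.56 and 0.369 in GKO. Every tumour was above every other liver except WT non-tumour 2, which was above every tumour. These levels correspond to 7 to 813 reads. A share of 28.6% of its stretches is also in 5 other genes, 4 of them pseudogenes.

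Fdps, the farnesyl diphosphate synthase at the end of the mevalonate arm, had the lowest levels of the set. In tumours it reached 3.08, 3.50 and 0.565 TPM in WT and 14.3, 1.28 and 3.07 in GKO. In non-tumours Fdps was at 0.376, 1.92 and 0.596 TPM in WT and at 0.212, 0.758 and 0.383 in GKO. In normal livers it was at 0.350, 0.374 and 0.182 TPM in WT and at 0.698, 0.619 and 0.279 in GKO. WT tumour 3 was as low as the livers, while GKO tumour 1 was above every other sample. Fdps is the least certain member, because 64.1% of its 50-base stretches are shared with 8 other genes, 7 of them pseudogenes. Gm3571, a processed pseudogene on chromosome 10, was listed above Fdps in 17 of 18 samples. It had 15.1, 12.5 and 2.03 TPM in WT tumours and 32.4, 3.35 and 2.76 in GKO tumours, so that WT tumour 3 was also its lowest WT tumour and GKO tumour 1 also its highest.

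Fdft1 encodes squalene synthase, the first step that leads only to sterols. Its tumour levels were 89.5, 81.3 and 35.2 TPM in WT and 110, 47.6 and 71.2 in GKO. Non-tumours had 27.2, 149 and 41.5 TPM in WT and 30.5, 22.9 and 27.3 in GKO. Normal livers had 22.4, 27.6 and 22.4 TPM in WT and 44.7, 35 and 35.4 in GKO. The 3 GKO normal livers lay above the 3 WT normal livers and above the 3 GKO non-tumours. A share of 30.7% of its stretches is also in its overlapping neighbour Ctsb or in Gm6781.

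Sqle, the squalene epoxidase that makes the first oxygenated intermediate, was the member with the tightest tumour values. It had 39.3, 33.7 and 40.1 TPM in WT tumours and 48.9, 23.6 and 40.7 in GKO tumours. WT non-tumours had 1.54, 46.6 and 4.57 TPM and GKO non-tumours 0.668, 3.22 and 1.74. Normal livers had 1.75, 2.98 and 0.708 TPM in WT and 6.33, 4.27 and 2.29 in GKO. The lowest tumour had 23.6 TPM and the highest of the other livers 6.33 TPM, with the sole exception of WT non-tumour 2, which was second only to GKO tumour 1. None of its 50-base stretches is shared with another gene.

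Lss, the lanosterol synthase that folds epoxidised squalene into the sterol rings, was also higher in tumours than in most livers. Tumours had 22.8, 23.8 and 5.67 TPM of Lss in WT and 26.1, 9.28 and 15.2 in GKO. Non-tumours had 2.46, 18.2 and 3.19 TPM of it in WT and 2.02, 2.54 and 2.00 in GKO. In WT normal livers it was 1.94, 1.96 and 1.33 TPM, and in GKO normal livers 3.30, 2.50 and 2.90. WT tumour 3 was the lowest tumour, yet it remained above all livers but WT non-tumour 2.

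Cyp51, the lanosterol demethylase of the cytochrome P450 family, takes the next step. In tumours it was at 77.5, 82.9 and 63.7 TPM in WT and at 102, 45.3 and 44.5 in GKO. WT non-tumours had 11.6, 153 and 22.3 TPM of Cyp51, and GKO non-tumours 8.56, 10.7 and 8.85. Normal livers were at 16.2, 18.7 and 9.85 TPM in WT and at 22.9, 30.2 and 12.9 in GKO. Its GKO non-tumours were the lowest group and did not overlap with the GKO normal livers.

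Insig1 is the feedback member, whose protein keeps SCAP and SREBP2 in the endoplasmic reticulum. Its level was 135, 139 and 79.4 TPM in WT tumours and 305, 96.2 and 422 in GKO tumours. It was 59.9, 208 and 74.2 TPM in WT non-tumours and 41.3, 54.8 and 51.6 in GKO non-tumours. Normal livers had 42.6, 47.0 and 26.6 TPM in WT and 92.6, 71.0 and 39.5 in GKO. Insig1 was the only member whose highest GKO tumour was GKO tumour 3, since GKO tumour 1 was the highest in the other 7.

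**Figure D1:**
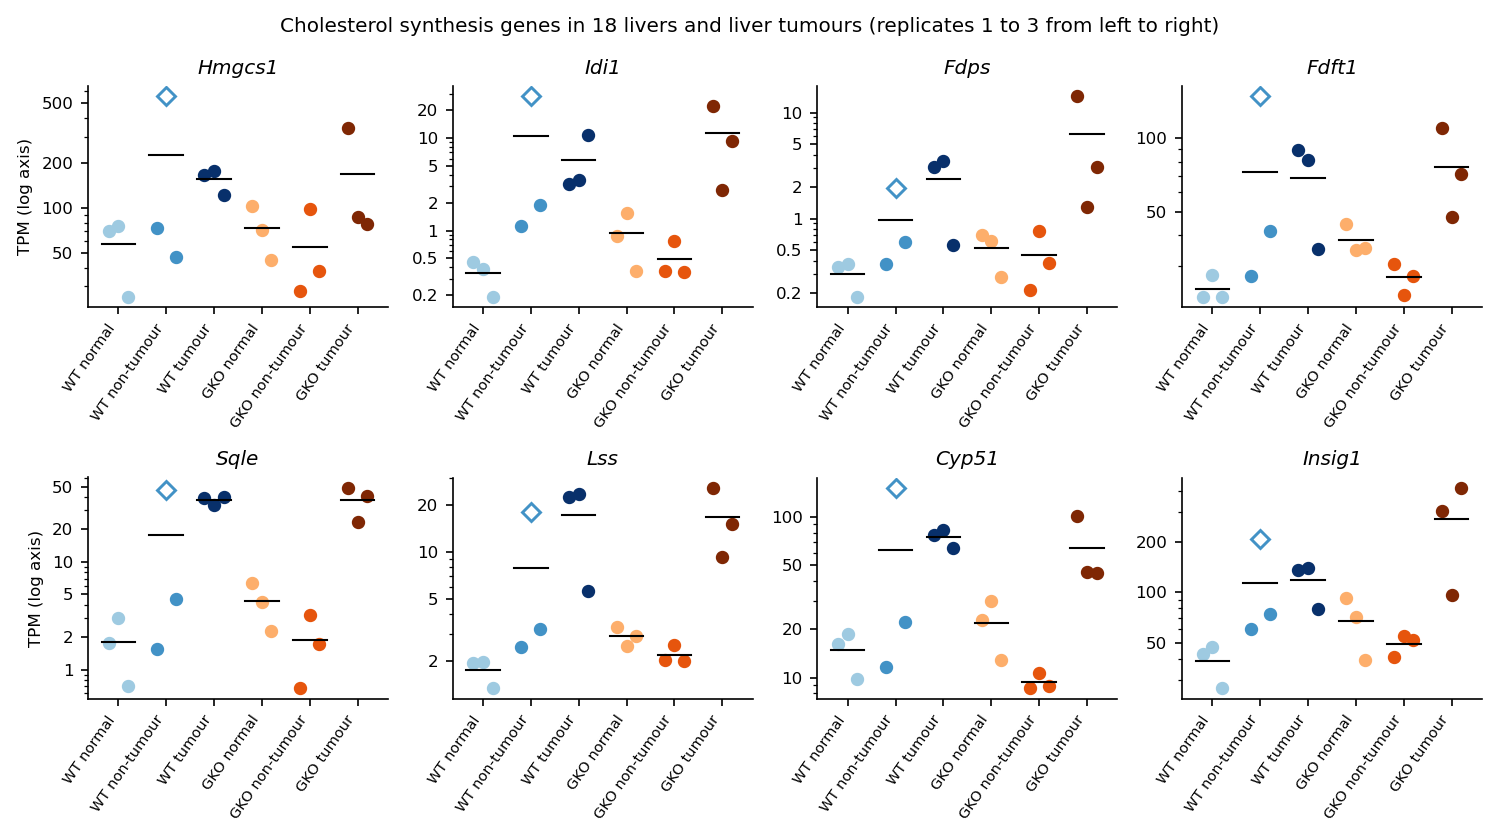
TPM of the 8 members on log axes in each of the 18 samples, with replicates 1 to 3 from left to right in each group and a line at the group mean. The open diamond is WT non-tumour 2, which lies with or above the tumours in each panel, while the other non-tumours and the normal livers lie near each other.

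Ordered by mean level, normal livers and GKO non-tumours were the 3 lowest groups in all 8 members, and most neighbours in the order overlapped in their values. Of the 5 neighbouring pairs, all 5 overlapped in Sqle, Fdps, Cyp51 and Insig1, and 4 did in Hmgcs1, Idi1, Fdft1 and Lss. The place of WT non-tumours in this order rests on 1 sample.

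The first comparison asked whether the members differ between tumours and the non-tumour liver of GKO mice. A difference is given as the change in mean log2(TPM + 1), tested with limma over every gene whose mean reached 0.5 TPM. It was called where the p, adjusted by Benjamini and Hochberg over those genes, was under 0.05. In GKO mice 6 of the 8 members rose in tumours over non-tumours and none fell, where 7.75% of the 14092 genes tested rose. Sqle rose by 3.79 (standard error 0.40, adjusted p = 0.0051), from 1.88 ± 1.28 TPM (SD, n = 3) to 37.8 ± 12.9 TPM. Cyp51 rose by 2.54 (standard error 0.35, adjusted p = 0.0087), from 9.37 ± 1.16 to 63.9 ± 32.9 TPM. Lss, from 2.19 ± 0.307 to 16.9 ± 8.51 TPM, rose by 2.38 (adjusted p = 0.010). These are the 3 enzymes that carry squalene to the demethylated sterol.

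Outside that stretch, Idi1 rose by 2.69 (standard error 0.59, adjusted p = 0.031), from 0.494 ± 0.234 to 11.3 ± 9.86 TPM. Insig1 rose by 2.22 (standard error 0.52, adjusted p = 0.037), from 49.2 ± 7.06 to 274 ± 165 TPM. Fdft1 rose by 1.4 (standard error 0.33, adjusted p = 0.037), from 26.9 ± 3.83 to 76.2 ± 31.5 TPM. The members that did not pass were Fdps, with a difference of 1.86 (95% confidence interval 0.39 to 3.33, adjusted p = 0.095), and Hmgcs1, with 1.47 (-0.08 to 3.03, adjusted p = 0.17). In 7 members, all but Hmgcs1, the 3 tumours lay above the 3 non-tumours, as they did in 25.7% of all genes. The median difference of the members was 2.30, beside 0.20 for all genes tested. Leaving out 1 sample at a time brought the count to 2 without GKO non-tumour 3, to 3 without GKO non-tumour 1, GKO non-tumour 2 or GKO tumour 3, to 4 without GKO tumour 1 and to 7 without GKO tumour 2. Sqle and Cyp51 kept their calls in all 15 alternative analyses, and Lss lost its call in 1, without GKO non-tumour 3. Fdft1 lost its call in 8 of the 15, and Idi1 and Insig1 each in 6.

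The same question in WT mice gave no call. None of the 8 members passed the test between WT tumours and WT non-tumours, where 4.23% of the 14003 genes did, and none had an unadjusted p under 0.05, where 19.9% of genes had. All 8 differences were positive, between 0.10 in Idi1 and 2.14 in Sqle (95% confidence interval of Sqle -0.19 to 4.47, adjusted p = 0.29). WT non-tumour 2 lay within or above the WT tumours in every member. Without that sample, Sqle rose by 3.36 (adjusted p = 0.011) and Cyp51 by 2.13 (adjusted p = 0.025), and Hmgcs1 had a difference of 1.37 (adjusted p = 0.064), where 2.87% of genes rose. These calls rest on 2 non-tumours, and the sample was left out after its values were known.

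Untreated normal livers give a second reference. In WT mice 7 of 8 members rose in tumours over normal livers, where 21.2% of the 13644 genes rose, and the tumours lay above the normal livers in all 8 members and in 35.6% of genes. Sqle rose by 3.86 (standard error 0.31, adjusted p = 6e-04), from 1.81 ± 1.14 to 37.7 ± 3.52 TPM, a mean 20.8 times as high. Lss rose by 2.53 (adjusted p = 0.014), from 1.74 ± 0.357 to 17.4 ± 10.2 TPM, and Cyp51 by 2.28 (adjusted p = 0.0023), from 14.9 ± 4.58 to 74.7 ± 9.88 TPM. The feedback gene Insig1 rose by 1.58 (adjusted p = 0.014), and the upstream enzyme Idi1 by 2.18 (adjusted p = 0.010). Hmgcs1 rose by 1.55 (adjusted p = 0.037) and Fdft1 by 1.37 (adjusted p = 0.033), and both calls ended in 10 of 16 alternatives, among them WT tumours 1 and 2 averaged as 1 sample, where 5 members were called. Fdps had a difference of 1.24 (95% confidence interval 0.27 to 2.21, adjusted p = 0.064), which was 1.72 (adjusted p = 0.0012) without WT tumour 3. The median difference was 1.88, beside 0.29 for all genes. The count fell to 4 without WT normal 1 or WT tumour 1 and rose to 8 without WT tumour 3.

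In GKO mice 4 of 8 members rose in tumours over normal livers, where 16.2% of the 13928 genes rose, and the groups did not overlap in 7 members, against 34.6% of genes. Sqle rose by 2.89 (adjusted p = 0.0049), Idi1 by 2.36 (adjusted p = 0.034), Lss by 2.09 (adjusted p = 0.0096) and Cyp51 by 1.46 (adjusted p = 0.044). Sqle and Lss kept their calls in all 15 alternatives, whereas Cyp51 lost its call in 11 of them and Idi1 in 10. Insig1 differed by 1.84 (adjusted p = 0.054), Fdps by 1.78 (adjusted p = 0.081), Fdft1 by 0.90 (adjusted p = 0.081) and Hmgcs1 by 0.93 (adjusted p = 0.27), and these 4 did not pass. The median was 1.81, beside 0.31 for all genes. With each sample centred on its median, where that shift is removed, 2 members were called. Leaving out GKO normal 1, 2 or 3 or GKO tumour 1 or 3 also left 2, and leaving out GKO tumour 2 gave 6. The lowered count is not shown to be a difference between genotypes, because the effects were not compared for this contrast.

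**Figure D2:**
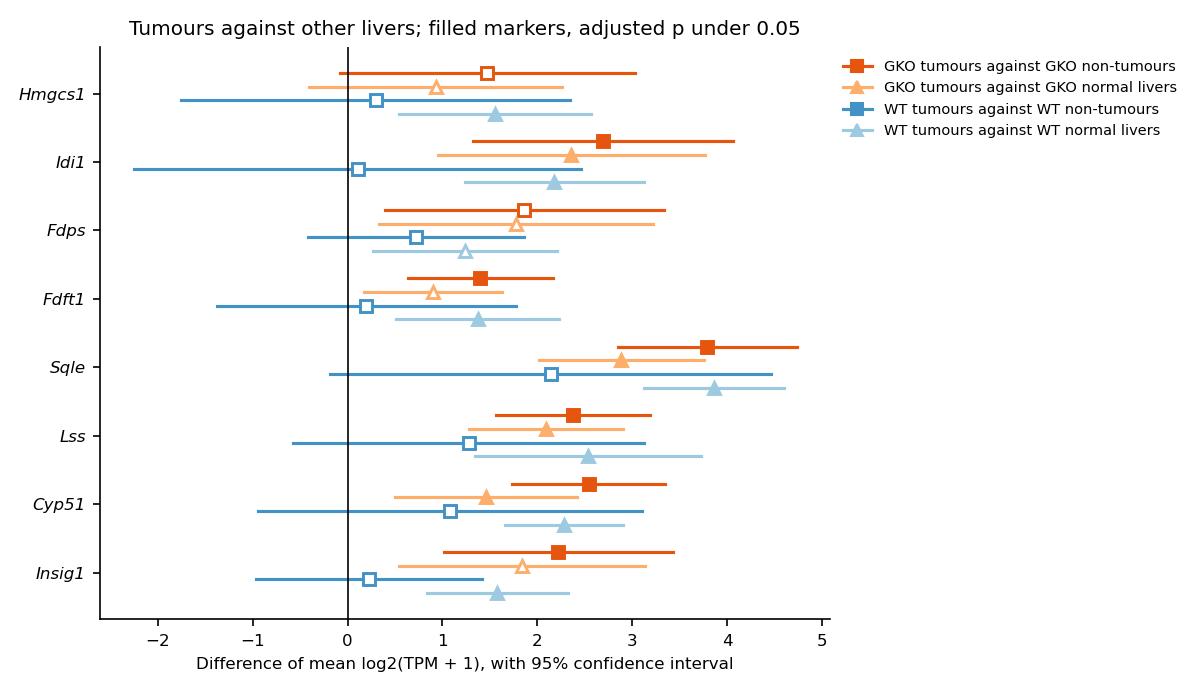
Difference of mean log2(TPM + 1) between tumours and non-tumours or normal livers for each member, with 95% confidence intervals, 3 samples a group. Filled markers have an adjusted p under 0.05, and the WT tumours against WT non-tumours have no filled marker and, in 6 members, all but Fdps and Insig1, the widest interval of the 4 comparisons.

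Over both genotypes, no member had all 6 tumours above all 12 other livers, which 4.13% of genes had. Without WT non-tumour 2 the 6 tumours lay above the 11 remaining livers in 4 members, Sqle, Idi1, Lss and Cyp51, against 9.69% of genes. The median of the 6 tumours over that of the 11 livers was 17.4 times in Sqle, 13.8 in Idi1, 7.73 in Lss and 5.48 in Cyp51. It was 8.17 times in Fdps, 2.76 in Fdft1, 2.66 in Insig1 and 2.08 in Hmgcs1, and in these 4 the lowest tumour lay within the range of the livers.

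Tumours of the same genotype differed among themselves. WT tumours 1 and 2 had nearly the same levels of each member, with tumour 2 at 0.855 to 1.14 times tumour 1. WT tumour 3 had 0.172 times their mean in Fdps, 0.243 in Lss and 0.412 in Fdft1, about the same in Sqle with 1.10 times, and 3.18 times in Idi1. Among GKO tumours, the highest over the lowest was 11.2 times in Fdps and 8.02 in Idi1, but 2.07 in Sqle and 2.29 in Cyp51.

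GKO and WT samples of the same tissue were compared next, as groups that can differ in more than the deletion. Between the tumours no member passed, as for 0.0215% (3) of 13964 genes that did, and none had an unadjusted p under 0.05, where 8.87% of genes had. Insig1 had the largest difference, 1.01 higher in GKO (95% confidence interval -0.30 to 2.33, adjusted p = 0.64), with 274 ± 165 TPM against 118 ± 33.3. Fdps and Idi1 were 0.77 and 0.66 higher, with intervals from -0.98 to 2.51 and from -0.99 to 2.31. For Sqle the difference was -0.05 (-0.76 to 0.65), with 37.8 ± 12.9 TPM in GKO and 37.7 ± 3.52 in WT. Cyp51 with -0.33, Hmgcs1 with -0.21, Fdft1 with 0.18 and Lss with 0.07 had intervals on both sides of 0, and the median of the 8 was 0.12. Beside these values, cholangiocyte markers summed to 963 and 551 TPM in GKO tumours 2 and 3 and to 25.0 to 54.9 in the other 4 tumours. Fibroblast and stellate cell markers summed to 69.4 to 161 TPM in GKO tumours and to 37.1 to 59.9 in WT tumours, and 4 of the 8 had an unadjusted p under 0.05, all higher in GKO, with none past the adjusted threshold. Clock genes that peak in the evening summed to 268 to 548 TPM in GKO tumours and to 115 to 199 in WT tumours, and those that peak in the morning to 15.6 to 20.5 and 32.6 to 59.2. The sampling hour is not in the labels, and the part of any of these in the results was not tested.

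In non-tumours all 8 members had lower means in GKO than in WT, by 0.37 in Fdps to 1.93 in Idi1, and none passed. No gene of 13768 passed (0.0%), and 5.8% had an unadjusted p under 0.05 but none of the members. Idi1, Cyp51 and Insig1 had the 3 GKO samples below the 3 WT samples, as had 9.32% of genes. The median difference was -1.21, beside -0.15 for all genes, and it was -0.44 over 7 members without WT non-tumour 2, where Fdps fell under the filter. In that fit Idi1 was lower by 0.74 with an unadjusted p of 0.022 (limma, adjusted p = 0.94).

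Normal livers went the other way, and again no member passed, nor did any gene of 13099 (0.0%). The 7 members tested were all higher in GKO, by 0.42 in Hmgcs1 to 0.92 in Sqle, with a median of 0.51 beside 0.06 for all genes. Fdps was under the filter. Sqle, Fdft1 and Lss had unadjusted p-values of 0.046, 0.0073 and 0.029 in limma (adjusted p = 1.0 each), where 3.96% of genes had one under 0.05. Fdft1 had 38.4 ± 5.46 TPM in GKO and 24.1 ± 3.02 in WT, a difference of 0.65 (95% confidence interval 0.23 to 1.06). Lss had 2.90 ± 0.402 and 1.74 ± 0.357 TPM, and these are the members whose groups did not overlap, against 6.23% of genes. Endothelial markers summed to 78.1 to 111 TPM in GKO and to 47.7 to 54.3 in WT normal livers. Fibroblast and stellate cell markers summed to 61.7 to 81.7 and 37.6 to 39.9 TPM. Cholangiocyte markers summed to 83.6 to 93.8 and 33.5 to 51.5 TPM. Morning clock genes summed to 11.9 to 26.0 and 28.2 to 36.7 TPM, while the sums of the other lists overlapped. The part of these in the results was not tested. Fdft1, which carries the seed match for the deleted microRNAs, thus differed by 0.65 in normal livers and by 0.18 in tumours. In non-tumours Fdft1 differed by -1.02, and by -0.32 without WT non-tumour 2. No adjusted p of these differences was under 0.05.

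**Figure D3:**
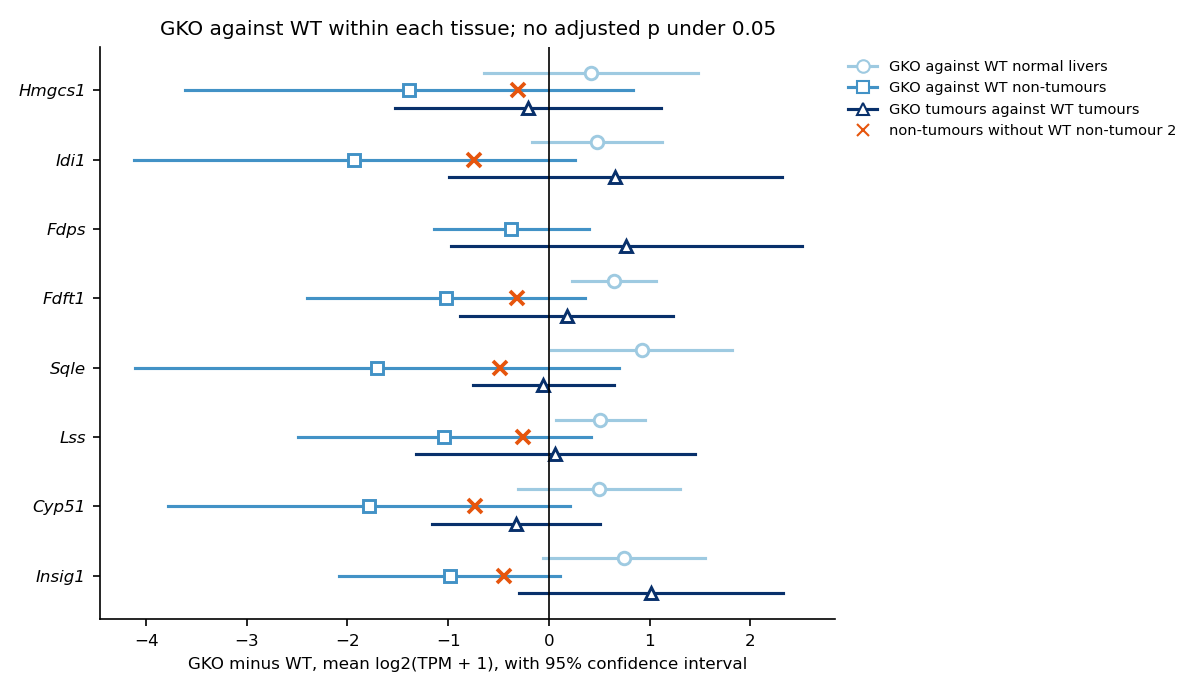
GKO minus WT difference of mean log2(TPM + 1) for each member in normal livers, non-tumours and tumours, with 95% confidence intervals, 3 samples a group. Crosses give the non-tumour difference without WT non-tumour 2, which lies closer to 0 than the square in each of the 7 members tested, and Fdps has no value in normal livers.

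DEN-treated non-tumour liver was compared with untreated liver within each genotype. In WT all 8 members had higher means in non-tumours, by 0.52 to 2.08, and none passed, as for 0.00744% (1) of 13440 genes that did. Insig1, 1.35 higher, was the only member with an unadjusted limma p under 0.05 (adjusted p = 0.17), where 24.4% of genes had one. Insig1, Idi1, Lss and Fdps had non-tumours above normal livers, against 31.0% of genes. For Fdps this rests on 0.376 TPM (13 reads) in WT non-tumour 1 against 0.374 TPM (14 reads) in WT normal 2. The median difference was 1.26, beside 0.32 for all genes, and it was 0.48 over 7 members without WT non-tumour 2.

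In GKO the 7 members tested all had lower means in non-tumours than in normal livers, by 0.29 in Lss to 1.08 in Cyp51, with a median of -0.50 beside 0.08 for all genes. None passed, nor did any of 13530 genes (0.0%). Cyp51 had 9.37 ± 1.16 TPM in non-tumours and 22.0 ± 8.69 in normal livers (limma, adjusted p = 0.80). For Fdft1 the values were 26.9 ± 3.83 and 38.4 ± 5.46 TPM (limma, adjusted p = 0.95). Both had an unadjusted p under 0.05, as had 5.2% of genes, and they were also the 2 members whose groups did not overlap, against 1.6% of genes.

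Whether the effects differ between genotypes was tested as an interaction over 12 samples. For tumours against non-tumours, the effect was larger in GKO in all 8 members, by 1.10 to 2.59, and none passed (adjusted p = 0.47 to 0.69), as for 0.0142% (2) of 14106 genes that did. Insig1, with 2.00, alone had an unadjusted limma p under 0.05 (adjusted p = 0.47), where 10.5% of genes had one. For non-tumours against normal livers, the effect was lower in GKO in all 8, by 0.60 to 2.63. In 6 members the unadjusted p was under 0.05, where 6.15% of genes had one, but no gene of 13488 passed (0.0%) and the adjusted p was 0.72 for each member. Without WT non-tumour 2 the medians of these interactions went from 1.33 to 0.46 over 8 members, and from -1.77 over 8 to -1.19 over 7. With all samples, the medians over all genes tested were 0.23 and -0.22. Behind the second interaction, member means in non-tumours were above normal livers in WT and, in the members tested, below them in GKO. No member passed in either of those comparisons. The 6 samples of non-tumours are shared by both interactions.

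WT non-tumour 2 is described next, as a sample chosen after its values were seen and without a test. It exceeded the other 5 non-tumours in all 8 members, as it did in 41.7% of 13768 genes, and was at least 2 times the next highest in all 8, as in 5.29% of genes. It was above all 6 tumours in Hmgcs1, Idi1, Fdft1 and Cyp51, as in 22.4% of 13914 genes. Against the median of the other non-tumours it was 37.1 times as high in Idi1, 26.7 in Sqle, 14.3 in Cyp51 and 11.9 in Hmgcs1. The other 4 members were between 3.80 times in Insig1 and 7.38 in Lss. Its hepatocyte markers, at 78851 TPM, lay within the 71646 to 98014 of the other non-tumours, and so did its summed morning clock genes at 26.6 TPM and evening clock genes at 102 TPM. Its B cell markers, at 6.30 TPM, were below the other non-tumours at 17.9 to 46.1. Its endothelial markers, at 54.4 TPM, were below their 92.2 to 110 and near the 47.7 to 54.3 of WT normal livers. Its cholangiocyte markers, at 77.3 TPM, were the highest of the non-tumours. Macrophage markers, at 148 TPM, and T cell markers, at 4.01 TPM, lay within the 136 to 789 and the 3.16 to 12.3 of the other non-tumours. Fibroblast and stellate cell markers, at 32.2 TPM, and red blood cell markers, at 379 TPM, were below the 46.5 to 72.8 and the 417 to 828 of the others. The part of these in its member levels was not tested.

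**Figure D4:**
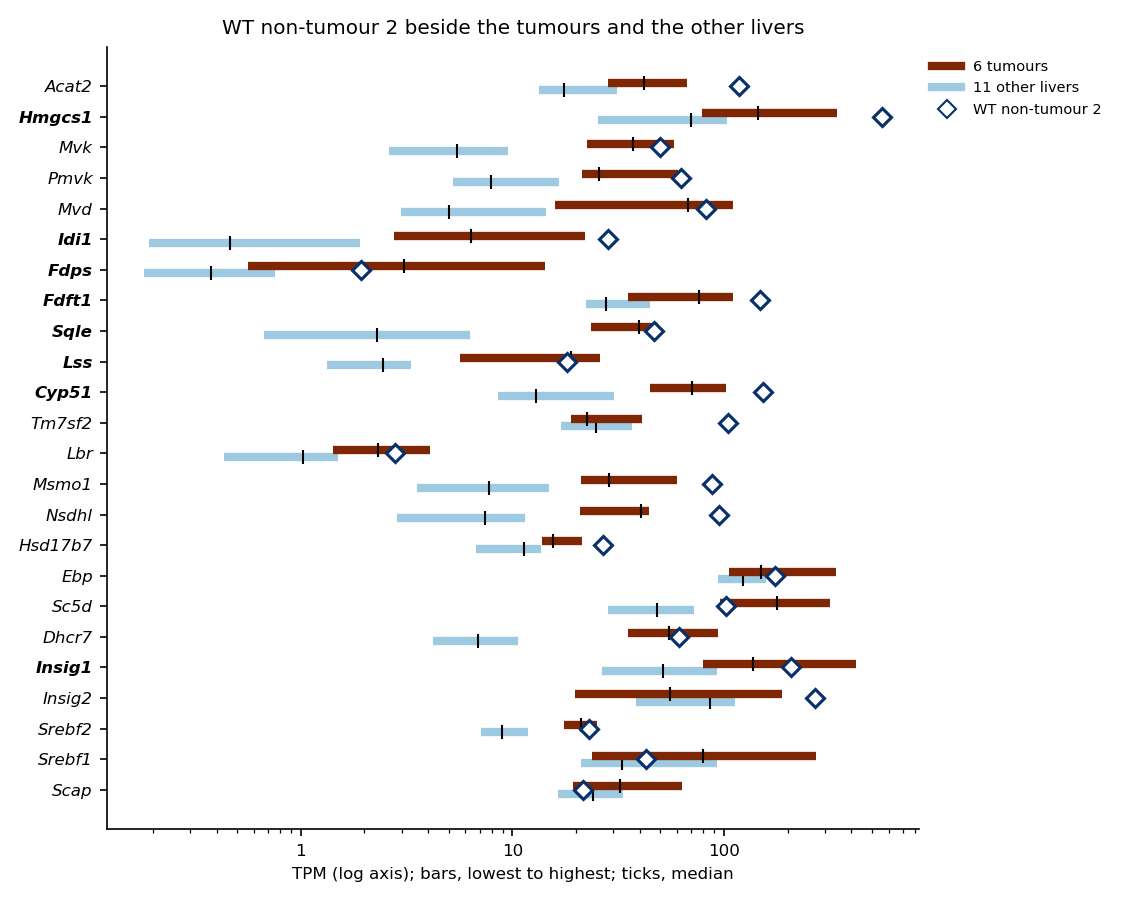
TPM on a log axis of the members, in bold, and other genes of cholesterol synthesis and its control, as the range of the 6 tumours and of the 11 livers other than WT non-tumour 2, with medians as ticks. The diamond of WT non-tumour 2 lies in or beyond the tumour range for all 8 members, and for Sqle its 46.6 TPM compares with at most 6.33 in the other livers.

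The rest of the pathway was read from lists of its steps, beside the 7.75% of all genes that rose in GKO tumours over non-tumours and the 21.2% that rose in WT tumours over normal livers. In the mevalonate arm, 8 genes that include 3 members, 5 rose in GKO tumours over non-tumours and 7 in WT tumours over normal livers, and none fell. Mvd, the mevalonate diphosphate decarboxylase just before Idi1, rose by 3.55 (adjusted p = 0.0055) in the first and by 3.13 (adjusted p = 0.011) in the second comparison. Mvk, the mevalonate kinase, rose by 2.53 (adjusted p = 0.015) and 3.37 (adjusted p = 5e-04). Pmvk, which follows it, rose by 1.82 (adjusted p = 0.038) and 1.73 (adjusted p = 0.0025).

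In the squalene and sterol arm, 13 genes that include 4 members, 9 and 10 rose in the same comparisons and none fell. Dhcr7, a sterol reductase late in the chain, rose by 2.68 (adjusted p = 0.0051) in GKO and by 3.25 (adjusted p = 0.0011) in WT. Nsdhl and Msmo1, which act later than Cyp51 in removing methyl groups, rose by 2.51 (adjusted p = 0.0083) and 2.35 (adjusted p = 0.015) in GKO. Not every step moved so: Ebp, the sterol isomerase, differed by 0.60 (adjusted p = 0.35) and 0.22 (adjusted p = 0.54). Tm7sf2, a sterol reductase of the step between Cyp51 and Msmo1, differed by 0.50 (adjusted p = 0.33) and -0.16 (adjusted p = 0.57).

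Of the 7 regulators in the SREBP list, which include Insig1, 3 rose in GKO tumours over non-tumours and 2 in WT tumours over normal livers, the latter near the 21.2% of all genes. Srebf2, which encodes SREBP2, rose by 1.28 (adjusted p = 0.013) and 1.20 (adjusted p = 0.0084), from 8.91 TPM in the median of the 11 livers to 21.1 in that of the 6 tumours. Insig2, the relative of Insig1, did not pass in either, with -0.67 (adjusted p = 0.39) and -0.36 (adjusted p = 0.63).

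Around the pathway the picture was mixed. Among 8 genes of sterol uptake and transport, 3 rose in GKO tumours over non-tumours and 4 in WT tumours over normal livers, among them Scarb1, the HDL receptor, by 1.45 (adjusted p = 0.024) and 1.79 (adjusted p = 0.015). Among 9 genes of LXR control and sterol export, 1 of 9 tested rose in the first and 6 of 8 tested in the second. Abcg5, a subunit of the transporter that moves sterols into bile, rose by 1.5 (adjusted p = 0.0043) in WT and had a difference of -1.29 (adjusted p = 0.16) in GKO. Of the 8 genes of the isoprenoid branches, which make or attach other isoprenoids, 1 rose in each comparison, beside 7.75% and 21.2% of all genes, Fntb by 0.92 (adjusted p = 0.037) in GKO and Dhdds by 1.28 (adjusted p = 0.024) in WT. Of the 8 fatty acid synthesis genes under SREBP1, 3 rose in GKO, and 5 rose and 2 fell in WT. Acly, the ATP citrate lyase that supplies acetyl-CoA, rose by 2.56 (adjusted p = 0.023) and 2.27 (adjusted p = 0.0019), whereas the desaturase gene Scd1 fell by 1.59 (adjusted p = 0.0055) in WT and differed by 0.75 (adjusted p = 0.48) in GKO.

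**Figure D5:**
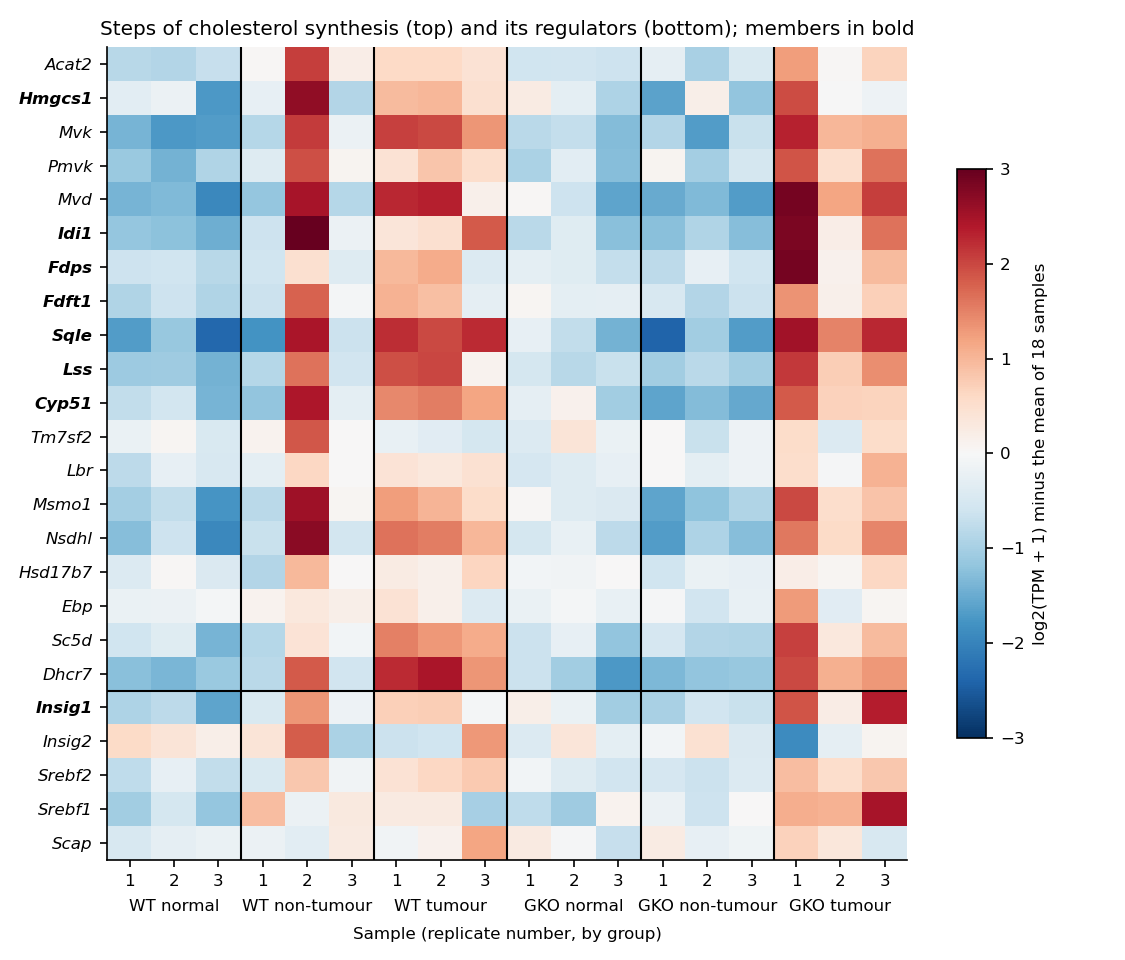
log2(TPM + 1) minus the mean of the 18 samples for members, in bold, other steps of cholesterol synthesis and regulators, in rows, and samples by group, in columns. Most synthesis genes are high in the 6 tumours and in WT non-tumour 2, where Idi1 has 28.4 TPM. Ebp, Tm7sf2 and the regulators Insig2, Srebf1 and Scap vary less or differently.

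The members varied together. Over the 18 samples Pearson's r of log2(TPM + 1) between 2 members ranged from 0.73 for Hmgcs1 and Fdps to 0.95 for Sqle and Cyp51, with a median of 0.85 over 28 pairs. With each value centred on its group mean the range was 0.50 to 0.96, highest for Fdft1 and Lss, with a median of 0.75. Without WT non-tumour 2 the centred range was 0.04 to 0.91 with a median of 0.55. Samples share their library and depth across genes, so these are descriptions.

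The mean of the 8 members, each scaled to unit spread over the 18 samples, was compared with 13906 other genes. Over all 18 samples, among the most alike were Mvd with r = 0.98, Msmo1 and Nsdhl with 0.97 each, Rdh11, a retinol dehydrogenase, with 0.96, and Mmab, an enzyme of cobalamin metabolism, with 0.95. Mvk, Srebf2 and Dhcr7 followed with 0.94, 0.93 and 0.93. Without WT non-tumour 2, over 17 samples, Mvd with 0.98, Msmo1 with 0.97 and Nsdhl with 0.96 were still among the first 10. Rdh11 and Mmab were not, and Gna11, Col4a2, Smtn, Apln and Lman1, with r from 0.96 down to 0.95, were. Srebf2 had r = 0.93 there, at rank 28 in place of 9. Over the 18 samples centred on group means, Msmo1, Mvd, Nsdhl, Entpd5, Dhcr7, Rdh11, Mmab, Pls1 and Tuba1c led, with r from 0.95 down to 0.89. This centred list includes WT non-tumour 2 and was not computed without it. Fasn, the fatty acid synthase, had r = 0.89 over the 18 samples and Scd1 -0.02.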

How the data were processed

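Total RNA was sequenced on an Illumina HiSeq instrument. Reads were aligned by the authors to mm10 (STAR 2.7.3a) and counted per gene (featureCounts 2.0.0, Subread), and the authors deposited 1 table of TPM for 54838 genes, which has 0 columns without a sample and 28 empty columns. How TPM was computed, and the annotation and strand setting, are not given in the sources used here. TPM carries no depth, but multiplied by the exonic lengths of GENCODE mouse release 21, which held 54809 genes, 97.95% to 98.67% of values of up to 30 reads came out whole within 0.02, giving 11925055 to 20751348 reads a sample. A floor of 3 reads covers counting error only.

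Samples were grouped by genotype and tissue in the labels. Each comparison used limma 3.58.1 in R 4.3.3 (lmFit, eBayes with trend) on log2(TPM + 1) of its own samples, over genes whose mean reached 0.5 TPM, 2-sided, with Benjamini-Hochberg adjustment over all genes tested. The added 1 understates changes of low genes such as Fdps. An exact permutation test of 3 samples against 3 cannot give a p under 0.1. The members and lists were chosen with earlier results of these data known. Genes named outside the members are steps next to a member, those called in a list (at most 4 a list and comparison) and the most alike by correlation, and not every listed gene is reported here. Shared 50-base stretches were found by comparing all GENCODE transcripts. Promoters and miRNAs are from RefSeq, and 3′ UTRs from GENCODE. Alternatives were voom on recovered reads, a replicate block, eBayes with no trend, a joint fit of all 18 samples, quantile normalization, centring on medians, a pseudocount of 0.1, no filter or a mean of 5 TPM, WT tumours 1 and 2 averaged and leaving out each sample. The fits were tested on simulated data. Figures used matplotlib 3.10.9.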

Additional observations from a re-analysis of the deposited data

How the results depend on the processing

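Of 1395 values of single members under alternative settings, over 86 results, 1298 kept their direction and side of the threshold, 64 lost a call, 13 gained one and 20 changed sign. Every sign change was in a difference that had not passed. Between GKO and WT tumours, the Lss difference was -0.033 under quantile normalization. Leaving out 1 sample at a time put it between -0.56 and 0.41 in Lss, -0.24 and 0.47 in Fdft1, -0.0083 and 1.37 in Fdps, -0.89 and 0.17 in Hmgcs1 and -0.27 and 0.24 in Sqle. For WT tumours over non-tumours the bounds were -0.40 and 1.37 in Hmgcs1, -0.61 and 1.29 in Idi1, -0.30 and 0.90 in Fdft1 and -0.12 and 0.77 in Insig1, and averaging WT tumours 1 and 2 gave -0.011 in Fdft1. Hmgcs1 between GKO and WT normal livers ranged from -0.075 to 0.72.

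Without the filter on low values, 3 members were called in GKO tumours over non-tumours (6 as reported) and 2 in GKO tumours over normal livers (4 as reported), and median centring, quantile normalization and voom also gave 2 in the latter. Leaving out 1 sample gave counts of 2 to 7 for GKO tumours over non-tumours, 2 to 6 for GKO tumours over normal livers, 4 to 8 for WT tumours over normal livers and 0 to 2 for WT tumours over non-tumours. The median difference for WT tumours over normal livers was 2.34 with a pseudocount of 0.1 and 1.49 with median centring, against 1.88. The median over all genes tested was 0.38 and -0.097 under these 2 settings, against 0.29. Same-numbered samples did not deviate together (r between -0.30 and 0.25). With 3 samples a group these values cannot show whether the numbers pair the samples, so pairing stays unknown. With the replicate block, 6 members were called in GKO tumours over non-tumours. The block gave 7 in WT tumours over normal livers and 3 in GKO tumours over normal livers. Depth limits Idi1 and Fdps most, with as few as 7 reads in a sample.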
